A study of Mus musculus with 52 samples.

Results

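The genes described here encode the translation initiation and elongation factors of mouse bone marrow cells. They were all protein-coding genes of the deposited count table whose symbol starts with Eif1 to Eif6, Eef1 or Eef2, with predicted (Gm) and pseudogene (-ps) entries left out. This gave 67 genes of the 28786 in the table, which holds 21070 protein-coding genes. The data were Smart-seq2 libraries, in which whole transcripts of 1 cell per well are copied and amplified, with no molecular identifiers. All 52 cells had 1 label, primed HSCs (haematopoietic stem cells), and came from the bone marrow of C57BL/6 mice with the genotype Cd4-cre;R26Tdtomato, aged 6 to 8 weeks. There, the Cd4 promoter drives Cre, which can activate tdTomato. The labels name no animal, no sort gate and no control, so the cells formed 1 sample with no replicate. No condition was compared, no p-value was computed, and each ± gives the standard deviation (SD) across cells.

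Translation starts when eIF2 carries the initiator methionine tRNA to the small ribosomal subunit, eIF3 and the start site factors hold the subunit open, and the eIF4 proteins bring it to the capped end of an mRNA. eIF2 must be recharged by its exchange factor eIF2B, and 4 kinases that sense haem, double-stranded RNA, unfolded proteins or lack of amino acids can block that step by phosphorylating eIF2. In elongation, eEF1A delivers aminoacyl-tRNA, eEF2 moves the ribosome along, and eIF5A, which carries the modified residue hypusine, helps at difficult peptide bonds. Low protein synthesis is a known feature of blood stem cells, and erythroid progenitors are known for high synthesis and for the haem-regulated kinase.

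The filter kept 49 of 52 cells, those with 50000 reads or more, 1000 detected genes or more and no more than 20% mitochondrial reads. They held 85519 to 12446477 reads, with a median of 2187579. The label was checked against markers. Kit and Lmo2 had reads in 48 and 49 of 49 cells, while the stem cell markers Ly6a, Procr and Slamf1 had reads in 8, 6 and 8 cells. The erythroid genes Car1, Gata1 and Klf1 had reads in 49, 44 and 46 cells. These are named from longer lists. Of all 9 erythroid genes listed, 6 had reads in most of the 49 cells. Of all 11 stem cell genes listed, 5 did, Kit and Lmo2 among them. Of 6 T cell genes, Cd4, Cd3e, Trbc2 and Bcl11b were at 0 in all 49. The other two, Cd3d and Lck, had reads in 10 cells and 1 cell, with a summed 198 CPM in cell 7 and at most 1.66 CPM in every other kept cell. Cell 34 had the highest summed CPM of neutrophil and monocyte markers (48132) and cell 9, which was the shallowest kept cell, that of B lineage markers (7811). The profiles of cells 6 and 13 correlated at 0.920 on the log2(CPM + 1) scale, against a median of 0.391 over all pairs of cells. Results are therefore also given without cells 9, 13, 23 and 34, of which cell 23 was set aside in earlier work on these data.

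The translation factors together took 3.15% of all reads in a mean cell, or 31496 ± 4783 CPM (counts scaled so that every cell has the same total). Their share ranged from 1.72% in cell 34 to 3.86% in cell 35, with a median of 3.28%. The elongation factors Eef1a1, Eef2 and Eef1g and the hypusinated factor Eif5a made up 57.7% of this sum. Of the 67 genes, 14 had a read in every kept cell, 60 had one in at least 50% of cells, and 60 had a mean of at least 10 CPM. Another 4 (Eif2ak3, Eif4ebp3, Eif5a2 and Eef1akmt3) had reads but a lower mean, and Eef1a2, Eif2s3y and Eif4e1b had none. Detection in 0 of 49 cells leaves room for up to 6.12% of cells with a read. The summed CPM of the translation factors followed that of 86 ribosomal protein genes over the 49 cells (Spearman's rho 0.734), and followed total reads less closely (rho 0.290). Both sums come from the same libraries and share their denominator, so these coefficients are a description only. Single pairs of translation factors were nearly unrelated from cell to cell, with a median rho of 0.0987 over pairs, beside 0.0593 over pairs of all genes at 10 CPM or more in the mean.

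**Figure D1:**
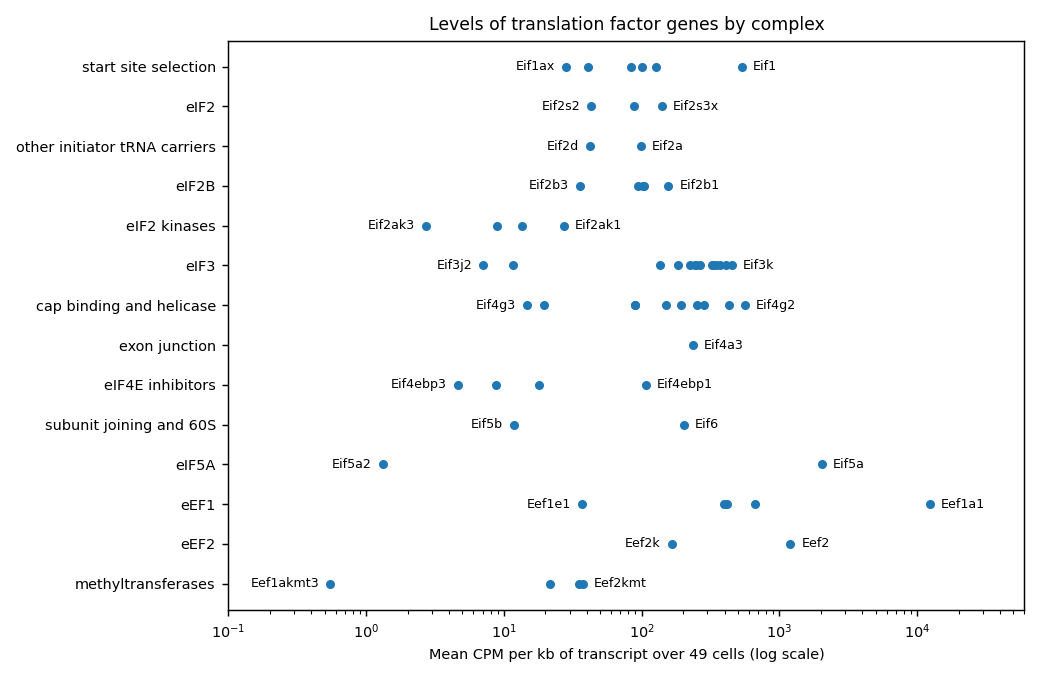
Mean CPM per kb of transcript over 49 cells for each translation factor gene with a read, on a log axis, with 1 row per complex or role and the highest and lowest gene of each named. Points are means over cells, lengths are the median of each gene's protein-coding transcripts, and Eef1a1 at 12377 stands right of all other genes.

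Levels of different genes were compared per kb of transcript, because full-length libraries give longer transcripts more reads. The length was the median over a gene's protein-coding transcripts in GENCODE release M21 (GRCm38), and ratios are given with their range over 3 lengths (that median, the longest transcript and all exons merged), since short annotated fragments made the first too small for some genes. Of 13 complexes, 10 had the same highest gene with the longest transcripts and 9 with merged exons, and it changed in the cap-binding group, eIF2B and the methyltransferases under both and in eIF3 under the second.

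The most abundant gene was that of an elongation factor. Eef1a1, the main eEF1A gene (chr9:78478449-78489151, minus strand), ranged from 5064 to 14124 CPM over the 49 cells with a median of 10672. This is a range of less than 3-fold, and no cell lacked the gene. Per kb it exceeded Eef2, the translocase gene (chr10:81176631-81182498), by 3.82-fold to 10.3-fold, and Eef1b2, a subunit of its exchange factor, by 20.7-fold to 31.1-fold. The paralog Eef1a2, the form of muscle and neurons, had 0 reads. Eef2 held 3713 ± 1041 CPM, with a lowest value of 162, in cell 34. Eef1g, Eef1d and Eef1b2, which together recharge eEF1A, held 1243 ± 476, 344 ± 182 and 521.2 ± 198 CPM. Eef1e1, an accessory protein of the multi-tRNA synthetase complex, was the lowest of the group at 93.8 ± 77.1 CPM and had reads in 44 cells. Eef2k, the kinase that inhibits eEF2, had reads in 41 cells, at 111 ± 119 CPM. Eef1a1 has many near-identical pseudogene copies in the genome, and its level is uncertain to the extent that the model behind the counts could assign reads among them.

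Eif5a (chr11:69916714-69921958, minus strand) was the second highest gene per kb with median lengths (2029 CPM per kb, and Eef2 1202), with 396, 2788 and 4269 CPM as the lowest, median and highest of 49 cells. Its paralog Eif5a2 had reads in 5 cells, and cell 47 alone held 271 CPM. The mean of Eif5a per kb was at least 831 times that of Eif5a2 under each of the 3 lengths.

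Among the initiation factors, the 12 core subunits of eIF3 lay close together. Their means ran from 303 CPM for Eif3m to 622 CPM for Eif3f, and each had reads in 47 to 49 cells. With median lengths the span per kb was 3.32-fold, from 137 for Eif3a, the scaffold, to 454 for Eif3k, and with merged exons Eif3f was the highest. The loosely bound subunit eIF3j has a pair of near-identical genes in mouse, and both were lower. Eif3j1 held 62.6 ± 59.3 CPM in 45 cells and Eif3j2 16.8 ± 28.6 CPM in 29 cells, with a split between them that is uncertain. Cell 9 had the highest value of Eif3l (2596 CPM), Eif3e (1929 CPM) and Eif3k (1450.0 CPM) of all cells, while Eif3a, Eif3d, Eif3g, Eif3h, Eif3i and Eif3m were at 0 there.

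The 3 subunits of eIF2 had unequal levels. Eif2s3x, the X-linked gene of the gamma subunit (chrX:94188707-94212862, minus strand), held 333 ± 252 CPM. Eif2s1, the alpha subunit that the stress kinases phosphorylate, held 299 ± 195 CPM, and Eif2s2, the beta subunit, held 99.8 ± 65.7 CPM. Per kb, Eif2s3x exceeded Eif2s2 by 2.33-fold to 5.91-fold over the 3 lengths. Eif2s3y, the Y-linked copy of the gamma subunit, had 0 reads in all 49 cells, as had the Y-linked genes Ddx3y, Kdm5d and Uty. Eif2a and Eif2d, which can bring initiator tRNA in place of eIF2, had means of 159 ± 127 and 90.4 ± 91.2 CPM. The 5 subunits of eIF2B had means from 55.6 (Eif2b3) to 113 CPM (Eif2b5, the catalytic subunit) and reads in 34 to 41 cells.

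Start site selection was led by Eif1, which guards against wrong start codons, at 496 ± 265 CPM. Per kb it exceeded its paralog Eif1b by 4.26-fold to 6.42-fold. Both genes for eIF1A, Eif1a and Eif1ax, were read in most cells (46 and 47 of 49), with Eif1a 1.70-fold to 3.55-fold higher per kb. Eif6, which keeps free large subunits from joining, had a median of 234 CPM and a highest value of 3087, in cell 9. Eif5b, the GTPase of subunit joining, held 91.6 ± 61.5 CPM and was at least 11.1-fold lower than Eif6 per kb.

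Of the cap-binding genes, Eif4a1, the main helicase, held 759.7 ± 300.4 CPM and exceeded its paralog Eif4a2 by 2.86-fold to 4.50-fold per kb. The scaffold Eif4g1 exceeded Eif4g3 by 4.70-fold to 6.05-fold. Eif4g2, a related protein that does not bind the cap-binding subunit, exceeded Eif4g1 by 1.19-fold with the longest transcripts and by 6.37-fold with median lengths, so the order of the pair was the same but its size was set by the length used. Eif4e, the cap-binding subunit, was read in 48 cells at 241 ± 171 CPM, Eif4e2 in 46 and Eif4e3 in 24. Eif4e1b, the oocyte form, had 0 reads. Among the inhibitors of eIF4E, Eif4ebp1 led in these cells, with 216 ± 135 CPM against 31.7 ± 40.7 for Eif4ebp2, a ratio of 12.3 to 19.7 per kb. Eif4ebp3 was read in 12 cells.

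The 4 eIF2 kinases had mean levels of 2.70 (Eif2ak3) to 27.1 CPM per kb (Eif2ak1), and different cells held different ones. Eif2ak1, the haem-regulated kinase, ranged from 0 through a median of 96.1 to 471 CPM and had a read in 44 cells (89.8%, exact 95% interval 77.8 to 96.6). Eif2ak2 (PKR, which senses double-stranded RNA) had a median of 21.7 and a highest value of 527 CPM, in cell 16, with a read in 39 cells (79.6%, 65.7 to 89.8). Eif2ak4 (GCN2, which senses uncharged tRNA) had a median of 11.6 and a highest value of 333 CPM, in cell 33, with a read in 36 cells (73.5%, 58.9 to 85.1). Eif2ak3 (PERK, the kinase of the endoplasmic reticulum) had reads in only 8 cells (16.3%, 7.32 to 29.7), and its highest value was 194 CPM, in cell 44. These intervals hold for counting error alone, since amplified reads that lack identifiers are not separate molecules. Over the 3 lengths, Eif2ak1 exceeded Eif2ak2 by 1.82-fold to 2.02-fold, Eif2ak4 by 3.06-fold to 3.55-fold and Eif2ak3 by 10.1-fold to 17-fold per kb.

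Per kb, Eif2ak1 was the highest kinase in 29 cells, Eif2ak4 in 10, Eif2ak2 in 7 and Eif2ak3 in 2, and 1 cell had no read of any. At 10 CPM or more, 14 cells held 1 kinase, 20 held 2 and 14 held 3, while 1 cell held none and 0 held all 4. The 3 kinases with a mean of at least 10 CPM were weakly related to each other over the 49 cells, with rho of 0.163 for Eif2ak1 with Eif2ak2, -0.190 for Eif2ak1 with Eif2ak4 and -0.114 for Eif2ak2 with Eif2ak4. Such coefficients in sparse counts are no finding. The highest value of each of these 3 kinases lay in a cell with Klf1 below 100 CPM (cells 7, 16 and 33), but high values also occurred in cells with more Klf1, and the groups overlapped over most of their range.

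**Figure D2:**
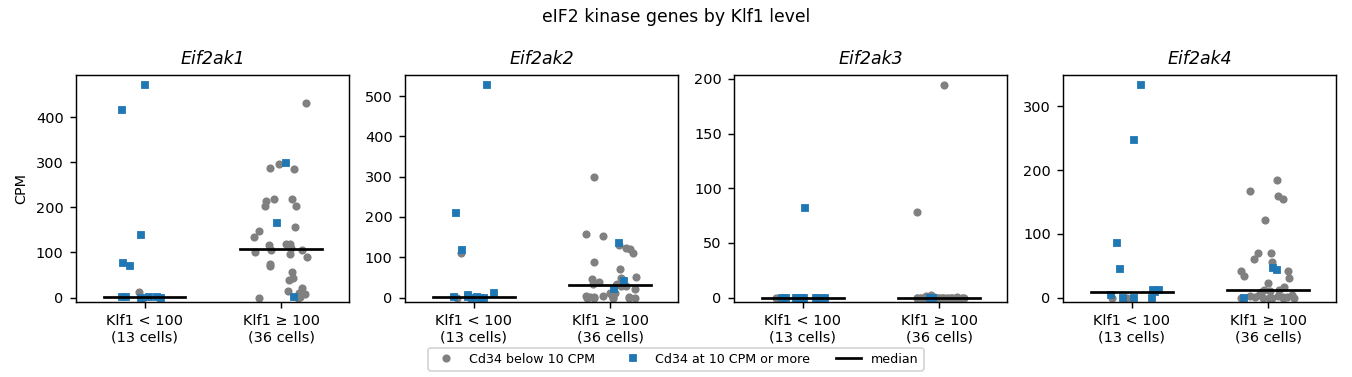
CPM of the 4 eIF2 kinase genes in each of 49 cells, split by Klf1 at 100 CPM, with squares for cells with Cd34 at 10 CPM or more, circles for the others and lines for group medians. Eif2ak1 had a median of 108 CPM in the 36 cells with more Klf1 and 2.25 CPM in the other 13, and Eif2ak3 was at 0 in most cells of both groups.

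Cells were then split by the level of Klf1, the transcription factor of erythroid cells, at 100 CPM, and of Cd34, a surface marker of stem and early progenitor cells, at 10 CPM. Klf1 reached its threshold in 36 cells and Cd34 in 14. The highest Klf1 value below its threshold was 82.2 CPM (cell 16) and the lowest above it 141 CPM (cell 47), and for Cd34 these were 1.66 CPM (cell 34) and 91.0 CPM (cell 2). The splits are nearly one, since 33 cells passed for Klf1 alone, 11 for Cd34 alone, 3 for both (cells 2, 21 and 47) and 2 for neither (cells 9 and 34). They are ranges of a per-cell level, not cell types, and 4 cells had Klf1 between 50 and 200 CPM. A gene was called higher or lower where its mean CPM differed by at least 1.5-fold between the groups, among genes whose mean was 10 CPM or more, with no test because cells of 1 sample are not replicates.

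By Klf1 level, 30 of the 60 translation factors with a mean of at least 10 CPM (50%) passed 1.5-fold, beside 65.5% of all 8796 genes with such a mean. Of the 60, 26 (43.3%) were higher in the cells with more Klf1, beside 35.1% of all genes. Another 4 (6.67%) were lower, beside 30.4%. Among all genes, 3091 of the 5762 called were higher. The median ratio was 1.40 over the 60 genes and 1.08 over all genes. Scaling by median-of-ratios size factors moved the median log2 ratio of all genes from 0.11 to -0.18. The translation factors then split into 18 higher and 12 lower, so 60% of those called were higher in place of 86.7%. The median ratio of the 60 genes was then 1.14 beside 0.882, and 66.5% of all genes were called. Without cells 9, 13, 23 and 34, 23 were higher and 6 lower, beside 64.4% of all genes called in either direction. The median ratio was then 1.32 over the 60 genes and 1.01 over all genes. For the alternatives of scaling, cell set and depth, all genes called higher and lower were not counted apart. The counts by direction under these alternatives therefore have no background. Among the 40 translation factors with a mean of 100 CPM or more, 19 were called (47.5%, beside 55.6% of 2313 genes). Of the 40, 18 were higher (45%, beside 37.2%) and 1 was lower (2.5%, beside 18.4%). The summed share of reads of all 67 genes was 3.37 ± 0.258% in the 36 cells and 2.54 ± 0.419% in the 13. The lowest of the 36 cells held 2.77% and the highest of the 13 held 3.27%, so the groups overlapped.

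Other measures moved with the split. Cells with more Klf1 had a median of 2993788 reads against 752926 in the others. With every cell thinned to the same 85519 reads, 27 translation factors were higher and 4 lower, beside 65.9% of all genes called in either direction. The summed CPM of the 5 mitosis markers was 1527 against 305, that of ribosomal protein genes 92429 against 74202, and all 7 of 9 erythroid markers with a mean of at least 10 CPM were higher. Their summed CPM ranged from 2877 to 18607 in the 36 cells and from 230.2 to 9483 in the 13, and Klf1, which made the split, is one of them. Neutrophil and monocyte markers (4 of 5 lower) summed to 0 to 2966 CPM in the 36 cells and 11.7 to 48132 in the 13. The medians of these sums were 15.1 and 871 CPM, and Elane was at 0 in all 49. In the same order, stem cell markers (7 of 10 lower, Cd34 among them) had mean sums of 1616 and 3642 CPM, megakaryocyte markers (4 of 4 lower) 71.1 and 624 CPM, and B lineage markers (4 of 4 lower) 56.9 and 631 CPM. The last mean rests largely on cell 9 (7811 CPM), and the medians of the B lineage sums were 2.76 and 11.5 CPM. The share of reads from Bhlhe41, a single gene of very uneven level, was 0.443% against 2.74%. The part of these measures in the differences was not tested, other than that of depth by thinning.

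**Figure D3:**
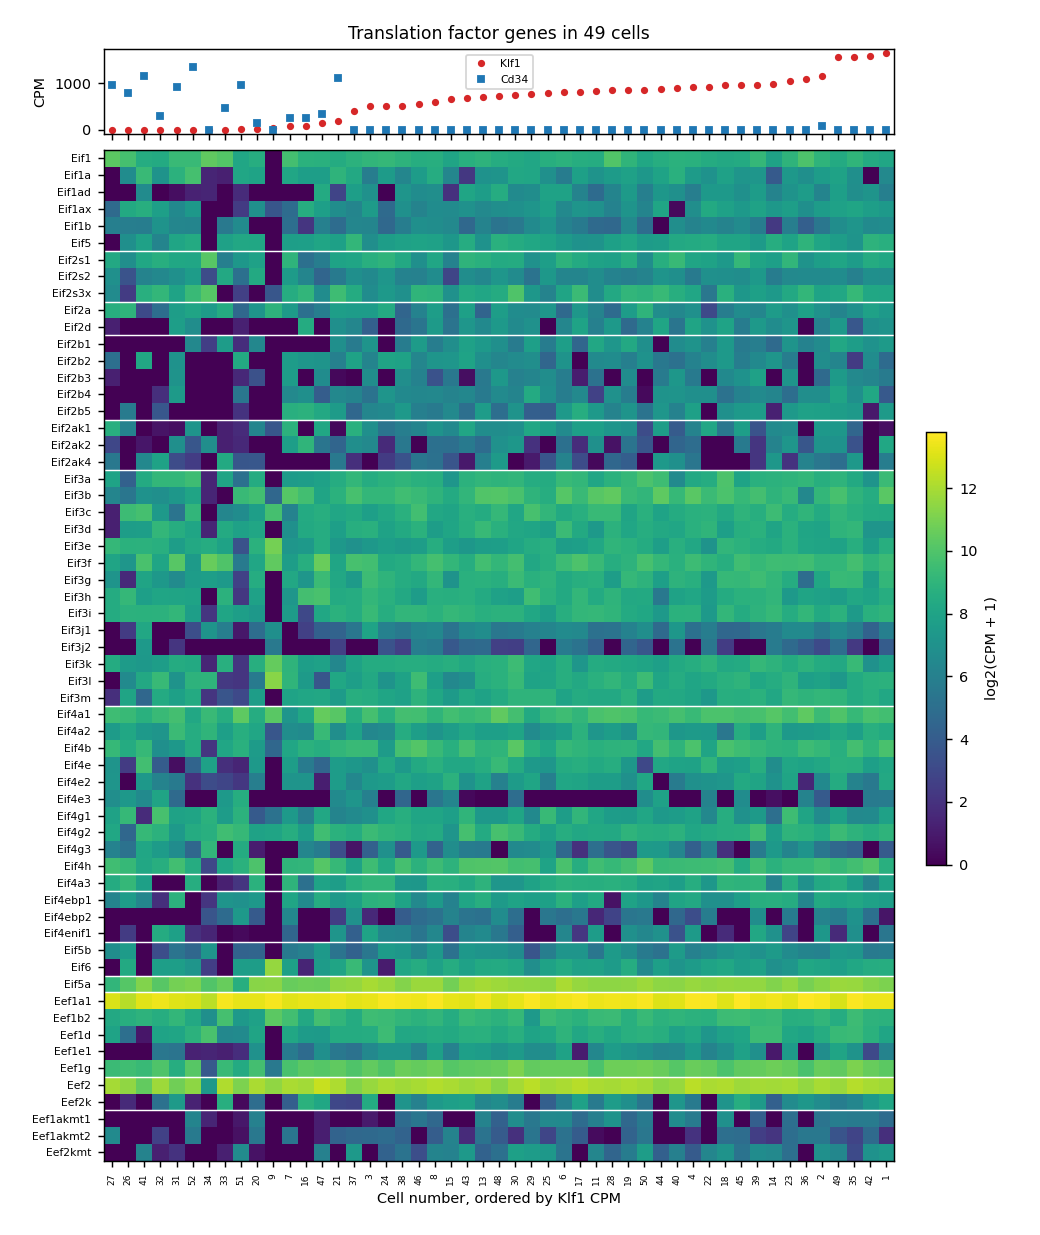
Levels of the 60 translation factor genes whose mean was 10 CPM or more in 49 cells, as log2(CPM + 1) in colour, with 1 column per cell in order of Klf1 CPM, white lines between complexes and Klf1 and Cd34 CPM above. Eef1a1, Eef2 and Eif5a are bright in nearly every cell, Eif1ad and the eIF2B genes are at or near 0 in many of the 13 cells on the left, and cell 9 is dark for many genes.

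At the threshold of 100 CPM the largest ratio of means was that of Eif1ad, a protein with a domain like that of eIF1A (chr19:5366741-5371526). It ranged from 0 through a median of 121 to 366 CPM in the 36 cells with more Klf1, and from 0 through 0 to 99.9 CPM in the other 13. Reads were found in 35 of 36 and 5 of 13 cells, and no cell of the lower group exceeded the median of the higher one. The means were 139 ± 88.2 and 8.13 ± 27.6 CPM, a ratio of 17, which was 14.5 without the 4 cells and 12.7 at equal depth. With the threshold at 300 CPM the ratio was 4.50, under the 4.91 of Eef2kmt, and with the split at the median it was 2.05, under the ratios of Eef1akmt1 (3.72), Eef2kmt, Eif2b3 and Eif2b1. Pooled over reads, the level was 118 CPM (exact Poisson 95% interval 116 to 120.4) against 9.67 (8.16 to 11.4), for counting error only. The 3 cells with both markers differed, with 73.1 CPM in cell 2, 6.02 in cell 21 and 344 in cell 47.

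Next in size were Eef2kmt, the methyltransferase of eEF2 (chr16:5244152-5255983, minus strand), Eef1e1 and Eif2b1. Eef2kmt had a median of 64.5 CPM and a highest value of 226 in the cells with more Klf1, against 0 and 98.0 in the others, and a ratio of means of 5.64. Eef1e1 (chr13:38644207-38659058, minus strand) ranged from 0 through 115 to 261 CPM against 0 through 1.66 to 123, and a ratio of 5.32. For both genes the groups overlapped, and most cells with little Klf1 were near 0. Eef1akmt1, which methylates eEF1A, was at 3.5-fold, and Eef1akmt2, another such enzyme, at 1.02-fold was not called.

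The abundant elongation genes differed by less. Eif5a ranged from 1663 through 3024 to 4269 CPM in the cells with more Klf1 and from 396 through 1534 to 2643 in the others, a ratio of 1.87. Under median-of-ratios scaling that ratio was 1.49, just short of the threshold. Eef1g (chr19:8967041-8978479) ranged from 908 through 1471 to 2258 CPM against 13.3 through 673 to 1291, a ratio of 2.17. In both genes the groups overlapped, but no cell with less Klf1 exceeded the median of the cells with more. Eef1d was at 1.61-fold, but at 0.768 when the 3 cells left out by the filter were included, of which cell 10 has Klf1 below 100 CPM. Eef1b2 (1.12), Eef2 (1.37) and Eef1a1 (1.20) were not called, and the direction for Eef1a1 flipped to 0.952 under median-of-ratios scaling. Thus 3 of the 5 eEF1 genes averaging 10 CPM or more were called higher, beside 35.1% of all genes, and neither eEF2 nor its kinase was. Of the 3, Eef1d lost its call in 4 of 8 alternatives of cell set, depth, scaling, statistic and Klf1 threshold. Eef1e1 and Eef1g kept theirs.

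**Figure D4:**
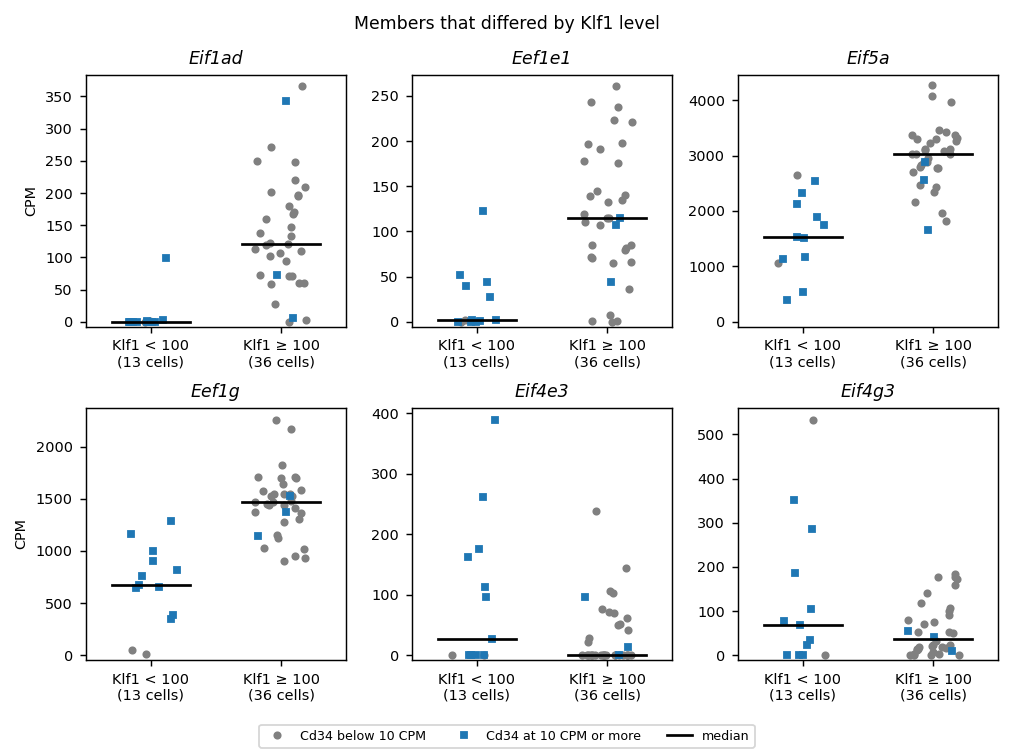
CPM of 6 translation factor genes in each of 49 cells, split by Klf1 at 100 CPM, with squares for cells with Cd34 at 10 CPM or more, circles for the others and lines for group medians. Eif1ad, Eef1e1, Eif5a and Eef1g have higher medians in the 36 cells with more Klf1, and Eif4e3 and Eif4g3 have lower ones, with overlap in all 6 genes.

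In eIF2B, the exchange factor, 4 of the 5 subunits were higher with more Klf1, beside 35.1% of all genes. These were Eif2b1 (4.29-fold), Eif2b4 (2.92-fold), Eif2b3 (2.48-fold) and Eif2b5 (1.75-fold). The exception was Eif2b2, a regulatory subunit, at 1.17-fold, which turned to 0.919 under median-of-ratios scaling and to 0.635 with the split at the median. Eif2b1, the alpha subunit that senses phosphorylated eIF2 (chr5:124570213-124579131, minus strand), had reads in 33 of 36 and 5 of 13 cells, with 116 and 0 CPM as medians. The sum of the 5 subunits was 516 ± 151 against 249.6 ± 293 CPM. Without the 4 cells Eif2b5 was at 1.44-fold and no longer called. None of the 3 eIF2 subunits with a mean of at least 10 CPM was called, at 1.00 (Eif2s1), 0.769 (Eif2s2) and 1.10 (Eif2s3x). However, Eif2s2 was called lower without the 4 cells (0.657), with all 52 cells (0.580) and under median-of-ratios scaling (0.658). Its ratio of medians was 1.15. The difference between the eIF2B and eIF2 genes was not tested.

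Among the 14 genes of eIF3, 6 were higher with more Klf1 and 0 lower, beside 35.1% and 30.4% of all genes. Under median-of-ratios scaling 3 were higher and 3 lower. Eif3g, an RNA-binding subunit, had a median of 432 against 161 CPM (2.70-fold in means), and no cell with less Klf1 exceeded the upper group's median. Eif3m was at 2.36-fold and Eif3b, a scaffold subunit, at 2.26-fold, and these 3 were called higher under each alternative of scaling, depth, cell set and Klf1 threshold that was run. Eif3a (1.68), Eif3i (1.66) and Eif3d (1.55) lost the call without the 4 cells. Eif3l and Eif6 turned there, from 0.811 to 1.54 and from 0.717 to 1.84, and cell 9 held the highest value of both.

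The cap-binding genes split. Eif4e was at 2.25-fold, Eif4e2, which binds the cap without the scaffold, at 3.01-fold, Eif4b, a helper of the helicase, at 2.03-fold and Eif4h, its relative, at 1.52-fold. Eif4h lost the call without the 4 cells (1.27), under median-of-ratios scaling and with the threshold at 300 CPM or the median. Eif4e3, the third cap-binding paralog (chr6:99625135-99666771, minus strand), went the other way. It had reads in 17 of 36 cells with more Klf1 and 7 of 13 with less, with medians of 0 and 26.5 CPM and means of 32.7 ± 53.1 and 94.3 ± 124 CPM, a ratio of 0.347. Eif4g3, a scaffold paralog, was at 0.459, while Eif4g1 (0.868), Eif4g2 (1.21), Eif4a1 (1.33) and Eif4a2 (0.95) were not called. Eif4e3 and Eif4g3 kept the call under the alternatives of cell set, depth, scaling, statistic and Klf1 threshold, but their means are below 100 CPM. The other 2 lower genes were Eif2a (0.631, and 0.720 without the 4 cells) and Eif2ak4 (0.665). Eif2ak4 lost the call in 5 of 8 such alternatives and turned in 2 of them, to 1.44 as a ratio of medians and 1.17 with the split at the median. Of the eIF4E inhibitors, Eif4ebp1 was at 2.01-fold, so inhibitor and cap-binding subunit were both higher in the same group.

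Of the other called genes, Eif2d was at 2.0-fold, Eif5b at 2.06-fold, Eif5, the GTPase activator of eIF2, at 1.55-fold and Eif4a3, a helicase of the exon junction complex, at 1.66-fold. The last pair lost the call without the 4 cells, at 1.33 and 1.37. Eif1, which was not called at 0.674, lay just outside the threshold, and Eif2ak2 (0.679) lay beside it. For the kinases, medians and means gave different ratios. The median of Eif2ak2 was 31 CPM in the cells with more Klf1 and 1.97 in the others, and that of Eif2ak1, whose means had a ratio of 1.38, was 108 and 2.25. Thus no direction by Klf1 is given for Eif2ak2 or Eif2ak4.

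**Figure D5:**
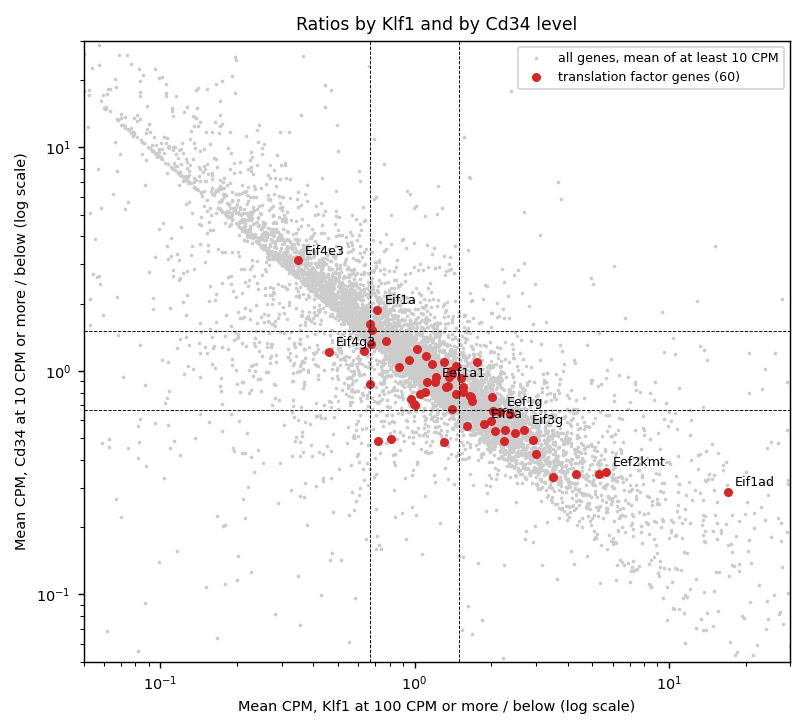
Ratio of mean CPM by Klf1 level (horizontal) and by Cd34 level (vertical) for genes whose mean was 10 CPM or more, on log axes cropped at 0.05 and 30, with translation factors in red, all genes in grey and dashed lines at 1.5-fold. The translation factors run along the same falling band as all genes, with Eif1ad at its lower right and Eif4e3 at its upper left.

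By Cd34 level, 25 of the 60 translation factors differed, beside 59.6% of all genes. Of the 60, 21 (35%) were lower in the 14 cells with Cd34, beside 28.8% of all genes. Another 4 (6.67%) were higher, beside 30.8%. Among all genes, 2537 of the 5245 called were lower. The median ratio was 0.788 over the 60 genes and 1.01 over all genes, and under median-of-ratios scaling these were 0.905 and 1.14. The 4 cells moved no call of this comparison. At a mean of 100 CPM or more, 13 of 40 were called (32.5%, beside 45.6% of 2313 genes). Of the 40, 12 were lower (30%, beside 29.9%) and 1 was higher (2.5%, beside 15.7%). All 67 genes took 2.72 ± 0.436% of reads in the 14 cells and 3.32 ± 0.380% in the 35. In the 3 cells with both markers the share was 3.17 to 3.5%, which overlaps the 2.77 to 3.86% of the 33 cells with Klf1 alone, and the 11 cells with Cd34 alone held 1.97 to 2.89%. The cells with Cd34 had a median of 1083632 reads against 2556759. Mean sums were 3559.7 against 11326 CPM for erythroid markers (6 lower and 1 higher) and 423 against 1515 CPM for mitosis markers (4 of 5 lower). Neutrophil and monocyte markers were mixed (2 higher and 3 lower), with median sums of 845 against 11.7 CPM. Their highest sum, 48132 CPM in cell 34, lay in the group with less Cd34. B lineage markers were also mixed (1 higher and 3 lower). Stem cell markers (9 of 10 higher, Cd34 among them) summed to 3881 against 1463 CPM and megakaryocyte markers (4 of 4 higher) to 578 against 73.7 CPM, and the part of these measures was not tested. At equal depth 20 genes were lower and 2 higher, beside 60.1% of all genes called in either direction. Because the splits share nearly all cells, the values are the other side of those by Klf1 and no separate evidence. In all, 18 genes were higher by Klf1 and lower by Cd34, and 2 (Eif4e3 and Eif2ak4, whose call depended on the setting) the reverse. The share of all genes with such opposite calls was not computed, so these counts have no background and are a description only.

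The lowest ratios by Cd34 were those of Eif1ad (0.288), Eef1akmt1 (0.336), Eef1e1 (0.344), Eif2b1 (0.346) and Eef2kmt (0.354). Eif5a had a median of 1701 CPM in the 14 cells and 3026 in the other 35, and none of the 14 reached the median of the 35. Lower by Cd34 without a call by Klf1 were Eif3l (0.496), Eif3j1 (0.482) and Eif6 (0.486, and 0.623 without the 4 cells). The 4 higher genes were Eif4e3 (3.13), Eif1a (1.87), Eif2ak4 (1.63) and Eif2ak2 (1.52). For Eif1a the median was 230.1 against 142 CPM, while its near copy Eif1ax was at 1.16. The kinase ratios rest on few cells. At equal depth Eif2ak4 was at 1.42 and Eif2ak2 at 1.18, neither of them called, and the median of Eif2ak2 was lower in the cells with Cd34 (9.26 against 29.9 CPM). Eif2ak1 had nearly equal means by Cd34 (117 and 117 CPM), but its ratio of medians was 0.337, so no direction by Cd34 is given for it.

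Genes that act with the translation factors were taken from a list of 56, of which 50 had a mean of at least 10 CPM. By Klf1 level, 21 of these were higher, 11 lower and 18 not called, beside 35.1% of all genes higher and 30.4% lower, with a median ratio of 1.25 beside 1.08. The counts of the groups within the list are small and have the same background. The 5 termination and recycling genes at 10 CPM or more in the mean were all higher, among them Etf1 (2.87), the release factor, and Mcts1 (4.22), which helps recycle the small subunit. Both enzymes that make hypusine on eIF5A were higher, Dhps with means of 64.4 against 16 CPM and Dohh with 174 against 48.7 CPM, which is the direction of Eif5a itself. The genes that make diphthamide, the modified residue of eEF2, were mixed, with Dph6 (3.29) and Dph7 higher, Dph5 (0.655) lower, and Dph1 (0.809) and Dph2 (0.727) not called. Of 6 mitochondrial translation factors, 5 were higher, led by Gfm2 (4.30) and Gfm1 (2.43).

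Targets of the eIF2 kinase pathway split, with 2 higher and 4 lower of 7 at 10 CPM or more. Ppp1r15a, the phosphatase subunit that reverses eIF2 phosphorylation, had means of 139 CPM in the cells with more Klf1 and 750.5 in the others, a ratio of 0.186. Atf4, the central transcription factor of the pathway, was at 0.579 (152 against 262 CPM), and Ddit3, a later target, at 0.520. The amino acid synthesis gene Asns went the other way, at 3.75 (278 against 74.3 CPM), as did Sesn2 (4.71), a stress gene that restrains mTORC1, while Nupr1, the fourth lower gene, had reads in only 8 cells. Trib3 and Chac1 had 0 reads. The kinase partners Gcn1l1, the coactivator of GCN2, and Impact, its inhibitor, were not called (1.47 and 1.29), and Dnajc3, an inhibitor of PKR and PERK, was at 1.57.

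In the cap-binding pathway, Pabpc1, the main poly(A)-binding protein, held 821 ± 329 CPM in all 49 cells and was not called (1.11), while Pabpc4 was at 6.25. Regulators of the poly(A)-binding proteins, Paip1 (0.237), Paip2 (0.600) and Paip2b (0.428), were lower. Of 11 genes of the mTORC1 arm, which controls the eIF4E inhibitors, 3 were higher (Mlst8, Rps6kb1 and Akt1s1), 2 lower (Rheb and Pdcd4, an inhibitor of the helicase Eif4a1) and the rest, with Mtor at 0.755, not called. The eIF4E kinase gene Mknk1 was at 0.438 and Mknk2 at 1.18. By Cd34 level the list gave 12 higher, 13 lower and 25 not called, beside 30.8% of all genes higher and 28.8% lower, with Ppp1r15a at 4.45.

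Many mRNAs of the translation machinery begin with a run of pyrimidines, C first, through which mTORC1 controls their translation. RefSeq start windows (GRCm38.p6) were matched by symbol for 51 of the 67 genes, and a C followed by at least 4 pyrimidines (C or T) at the annotated start was found in 2 of them, 3.92% beside 2.49% of all 27025 genes with a window. The 2 matches and, for comparison, the most abundant gene are shown as 15 bases before and 15 bases from the start, 5′ to 3′ on the gene's strand, with the run at the start in capitals. They are Eif2s3x (chrX:94212637-94212666, minus strand), Eif3f (chr7:108934400-108934429, plus strand) and Eef1a1 (chr9:78481710-78481739, minus strand).
Eif2s3x: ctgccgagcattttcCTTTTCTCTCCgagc
Eif3f: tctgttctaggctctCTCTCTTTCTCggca
Eef1a1: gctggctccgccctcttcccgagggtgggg
Eef1a1 had no run at this annotated start, which lies inside the gene as GENCODE bounds it, and a start placed a few bases off would hide such a run. A missing match therefore says only that these letters are not at this position.

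The same windows, 250 bases before and 50 after the start, were searched on both strands for CCNCNCCC, a form of the CACCC box that KLF proteins bind. It was present in 32 of 51 translation factors (62.7%), beside 49.1% of all genes. Among those higher with more Klf1 it was in 14 of 20 (70%), among those lower in 2 of 3 (66.7%) and among those not called in 13 of 24 (54.2%). The motif of Gata1 and its relatives, AGATAA, was in 1 of 51 (1.96%, beside 11.4% of all genes), and CACGTG, the E-box of MYC, in 10 (19.6% beside 7.24%). Of the 20 genes higher with more Klf1, 2 held CACGTG, and of the 24 not called 7 did. The shares of all genes cover all 27025 with a window, whether or not they had reads in these cells. No share was computed for expressed genes alone or for all genes called by Klf1. The percentages of the 3 motifs therefore have no matched background, and a link to Klf1 level was not tested. A match is a description of the letters and no site of binding. The upstream sequences of the 3 genes with the highest ratios by Klf1 show the matches, with CCNCNCCC on either strand in capitals, 5′ to 3′ on the gene's strand, up to the gene's outermost annotated start. They are Eif1ad (chr19:5366563-5366740, plus strand), Eef2kmt (chr16:5255984-5256206, minus strand) and Eef1e1 (chr13:38659059-38659278, minus strand).
Eif1ad: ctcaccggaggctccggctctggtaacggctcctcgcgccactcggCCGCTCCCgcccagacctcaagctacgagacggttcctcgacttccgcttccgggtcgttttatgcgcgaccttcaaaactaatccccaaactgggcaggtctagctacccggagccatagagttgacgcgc
Eef2kmt: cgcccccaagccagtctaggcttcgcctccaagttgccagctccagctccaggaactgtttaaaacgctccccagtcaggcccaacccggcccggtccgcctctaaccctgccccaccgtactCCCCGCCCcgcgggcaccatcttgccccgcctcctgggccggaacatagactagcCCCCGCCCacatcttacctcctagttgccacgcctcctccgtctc
Eef1e1: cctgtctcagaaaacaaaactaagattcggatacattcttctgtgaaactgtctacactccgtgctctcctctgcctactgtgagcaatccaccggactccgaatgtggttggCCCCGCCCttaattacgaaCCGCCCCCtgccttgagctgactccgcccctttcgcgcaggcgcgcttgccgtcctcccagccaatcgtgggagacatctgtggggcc
Eif1ad held 1 match in this stretch and each of the other two held 2.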

How the data were processed

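The data were single-cell Smart-seq2 libraries of 52 mouse bone marrow cells with 1 group label. The authors deposited an estimated count per gene and cell, for which the submitters' processing notes name Trim Galore 0.5.0, Salmon 0.03.1 and GRCm38. Transcript set, strand and filters were not given in the sources used here. Of the deposited values 4.23% were not whole, and all were rounded. Symbols were found for 27728 of 28786 gene IDs (96.3%) in GENCODE M21, the source of positions and lengths.

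Cells with 50000 or more reads, 1000 or more detected genes and no more than 20% mitochondrial reads were kept (49 of 52, 85519 to 12446477 reads). CPM is the rounded count over the cell's total, and CPM per kb divides by the median length of protein-coding transcripts. A gene was called where mean CPM differed at least 1.5-fold between cells at or above and below a threshold (Klf1 100 CPM, Cd34 10 CPM), among genes whose mean was 10 CPM or more. As the cells form 1 sample, no test was run. Shares of cells have exact Clopper-Pearson 95% intervals, which treat cells as independent draws. Pooled CPM has exact Poisson 95% intervals, for counting error of reads only. The calculation of ratios was checked on simulated counts, with planted changes larger than 1.5-fold in genes whose means were well above 10 CPM. That check does not cover calls near 1.5-fold or genes with low means. The genes and lists were chosen with earlier results of these data known.

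Values are named for the highest and lowest gene per kb of each complex, the 4 eIF2 kinases, paralogs, and genes past 1.5-fold. Alternatives varied the cell set, depth, scaling, statistic, thresholds, low value filter and transcript length. Analyses used Python 3.11.15, numpy 2.4.6, pandas 2.3.3 and scipy 1.17.1. Promoter windows came from RefSeq (GRCm38.p6).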

Additional observations from a re-analysis of the deposited data

Results flagged for a closer look

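Translation factor reads were also present in the 3 cells left out by the cell filter, outside the comparisons. Eef1a1 reached 3649 CPM in cell 5 (1121 reads, with 28.3% mitochondrial reads), 4560 CPM in cell 10 (181 reads of 39692) and 6073 CPM in cell 12 (197 reads of 32439). A count of 0 would allow up to 9.76, 75.6 and 92.5 CPM (3 reads) in these cells. The values in cells 5 and 10 lie under the lowest kept cell (5064 CPM) and that of cell 12 lies within the kept range. All 67 genes together took 1.37%, 2.13% and 2.15% of reads, with reads for 55, 31 and 53 of the genes.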

How the results depend on the processing

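The summed level of the translation factors ranged from 30765 to 32949 CPM over the 5 alternatives for cell set, depth and scaling, and that of the kinases from 215 to 236 CPM. Per kb, the sum was 25484 CPM per kb with median lengths, 15773 with the longest transcripts and 10694 with merged exons, since longer lengths divide the same reads. The share of all genes called under the same setting is given in brackets. By Cd34 level 25 translation factors were called (59.6%). There were 12 at a 2-fold threshold (39%), 15 with Cd34 split at 1 read (53%) and 13 with a minimum mean of 100 CPM (45.6%). By Klf1 level 30 were called (65.5%). There were 19 at 2-fold (45.7%), 16 with the split at the median (50.6%) and 19 with the 100 CPM minimum (55.6%). The 100 CPM minimum was added after seeing the data; with it and with 2-fold, fewer genes can pass. The other alternatives gave 22 to 31 calls by Cd34 (59.5 to 77.4% of all genes) and 27 to 39 by Klf1 (63.4 to 86.9%).

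Calls that turned were those of Eif2ak2 by Cd34 (0.310 as a ratio of medians), Eef1d by Klf1 (0.768 with all 52 cells) and Eif2ak4 by Klf1 (1.44 as a ratio of medians and 1.17 with the split at the median), and the cause was not tested. Over the 7 or 8 alternatives of cell set, depth, scaling, statistic and Klf1 or Cd34 threshold that gave a ratio, 13 of the 26 genes higher and 2 of the 4 lower by Klf1 kept their call, as did 9 of the 21 lower and 1 of the 4 higher by Cd34. This leaves out the 2-fold threshold and the 100 CPM minimum, under which genes with a lower mean, such as Eef1e1, Eif2b1, Eif4e3 and Eif4g3, are not tested. No paired analysis was possible because all cells belong to 1 group and carry no replicate numbers shared between groups. Depth limits the genes near 0: 3 reads are worth 35.1 CPM in the shallowest kept cell.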
